A study of Mus musculus with 12 samples.

Results

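Transcripts of 10 genes of MHC class I antigen presentation were followed in mouse splenic B cells through DNA damage, with and without an inhibitor of the ATM kinase. The members were taken by gene name from the normalised read count table, which holds 29486 genes: the classical heavy chains H2-K1 and H2-D1, the light chain B2m, the peptide transporter subunits Tap1 and Tap2, tapasin (Tapbp), the transactivator Nlrc5 and the immunoproteasome subunits Psmb8, Psmb9 and Psmb10. All 10 were found, each in a single row, and all 10 had a mean of at least 10 normalised counts, as did 14966 genes in all. B cells were isolated from spleens of C57BL/6Babr mice, aged 8 to 12 weeks by the study's methods, and cultured with LPS (10 μg/ml), a bacterial ligand that makes B cells divide. The 12 libraries comprised 4 per condition. Cells with LPS alone for 48 h are called LPS. Cells that also received etoposide (20 μM, 4 h), a topoisomerase II poison that breaks DNA, are called LE. Cells with LPS for 47 h that were given the ATM inhibitor KU55933 (also spelled KU59933 in the labels, 10 μM) 1 h before etoposide (20 μM, 4 h) are called LEKU. In the paper's methods etoposide follows 48 h of LPS, whereas a figure legend places it in the last 4 h. Total time in culture may therefore differ between LPS and the treated cells. All 3 conditions share the LPS stimulation, no cells received KU55933 without etoposide, and no vehicle control, sex or pooling of mice is given in the sources used here.

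Class I molecules show short peptides from the cell interior to CD8 T cells. The peptides are cut by the proteasome, carried into the endoplasmic reticulum by the Tap1-Tap2 transporter and loaded, with the help of tapasin, onto a heavy chain paired with B2m. Interferons raise most genes of this pathway, Nlrc5 acts on the promoters of several of them, and Psmb8, Psmb9 and Psmb10 replace the constitutive catalytic subunits Psmb5, Psmb6 and Psmb7 to form the immunoproteasome. B cells, as professional antigen-presenting cells, express class I and class II molecules.

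The deposited columns set a limit on every statement that follows. Any pair of columns of a condition differed by a single ratio that held for all genes, to within 1.4e-14 in log2 units. The table therefore gives, for each gene, a fitted value per condition multiplied by a factor per library, and the spread between the 4 replicates is not in it. The median column total was 22288890 counts in LPS, 24858967 in LE and 23825850 in LEKU, the lowest of the 12 being 20400994 and the highest 30575195. Values called normalised counts below were divided by library factors computed here as medians of ratios, of which the lowest was 0.8227 (LPS) and the highest 1.314 (LE). Each condition's libraries carried sequencing indexes that no other condition carried, so that index and condition cannot be told apart. No replicate test could be made, so that differences between conditions are given as log2 differences, log2(count + 1), without a p-value. Counting error alone gives them standard errors between 0.00473 and 0.0349, which are lower limits because variation between cultures is not included. Selected differences, and the counts and medians of the members, were instead set beside the same measures over the 14966 genes. Of the B cell markers, Ms4a1 had 31159, 20673 and 13358 normalised counts in LPS, LE and LEKU and Cd79a had 22185, 15707 and 16226, whereas all 7 T and NK cell markers in the table summed to between 11.95 and 14.46 counts.

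H2-K1 and H2-D1 were more abundant in LE than in LPS and more abundant again in LEKU, while B2m stayed near the same level. H2-K1 (ENSMUSG00000061232, chromosome 17, 33996017 to 34000347, minus strand, GRCm38) encodes a classical heavy chain, and its deposited counts were 26553, 29459, 30645 and 27613 in the LPS libraries. They were 37017, 41490, 50250 and 40221 in the LE libraries and 45163, 50929, 54561 and 55460 in the LEKU libraries. Within a condition these counts differ only by the library factor, so that their ranges do not show replicate spread. After division by the library factors, H2-K1 had 32277 normalised counts in LPS, 38253 in LE and 49807 in LEKU. The log2 difference was 0.25 for LE against LPS, above that of 67.2% of all genes, and 0.38 for LEKU against LE. It reached 0.63 for LEKU against LPS, a 1.543-fold level. The paper reports H2-K1, a target of the RNA-binding protein Tia1, as more translated after etoposide with its mRNA abundance maintained. It compared abundance with DESeq2 over replicates, whereas the difference of 0.25 carries no replicate spread. No member was higher by at least 1.5-fold in LE against LPS, where 20.8% of all genes were, and H2-K1 alone was in LEKU against LPS, where 19.6% of all genes were.

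H2-D1 (ENSMUSG00000073411, chromosome 17, 35262730 to 35267499, plus strand), the second classical heavy chain of this strain, had 24149 normalised counts in LPS, 27426 in LE and 34539 in LEKU. Its log2 differences of 0.18, 0.33 and 0.52, for LE against LPS, LEKU against LE and LEKU against LPS, placed it next to H2-K1. The first lay above that of 63.7% of all genes. By the distance between their differences in the first 2 of these comparisons, H2-K1 and H2-D1 were the closest of all pairs of members (0.0781). B2m (ENSMUSG00000060802, chromosome 2, 122147686 to 122153083, plus strand), the light chain common to all class I molecules, had 32912, 33189 and 31888 normalised counts. Its log2 differences of 0.012, −0.058 and −0.046 changed sign with the scaling, under quantile normalisation for the first and second and under 4 of 5 scalings for the third.

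Ratios between genes of a library do not depend on the library factor, which cancels. Per kilobase of annotated exon, the ratio of H2-K1 to B2m was 0.287 in LPS, 0.337 in LE and 0.457 in LEKU, a log2 difference of 0.67 for LEKU against LPS. The ratio of H2-D1 to B2m was 0.245, 0.276 and 0.361. B2m was the tenth most abundant gene in LPS by counts per kilobase (38269, rank 10 of 14894 genes with an annotated length), and H2-K1 and H2-D1 held ranks 84 and 113. Reads of H2 heavy chains can fit several near-identical genes, and how the authors' counting divided them is not given in the sources used here, so that single heavy chains are uncertain. The sum over the 15 H2 class I heavy chains examined, 113157 counts in LPS, 120159 in LE and 168560 in LEKU, does not depend on how reads were divided among these genes, although reads that fit several genes may have been dropped. Relative to B2m it was higher by 0.075 in LE than in LPS and by 0.55 in LEKU than in LE, on the log2 scale.

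**Figure D1:**
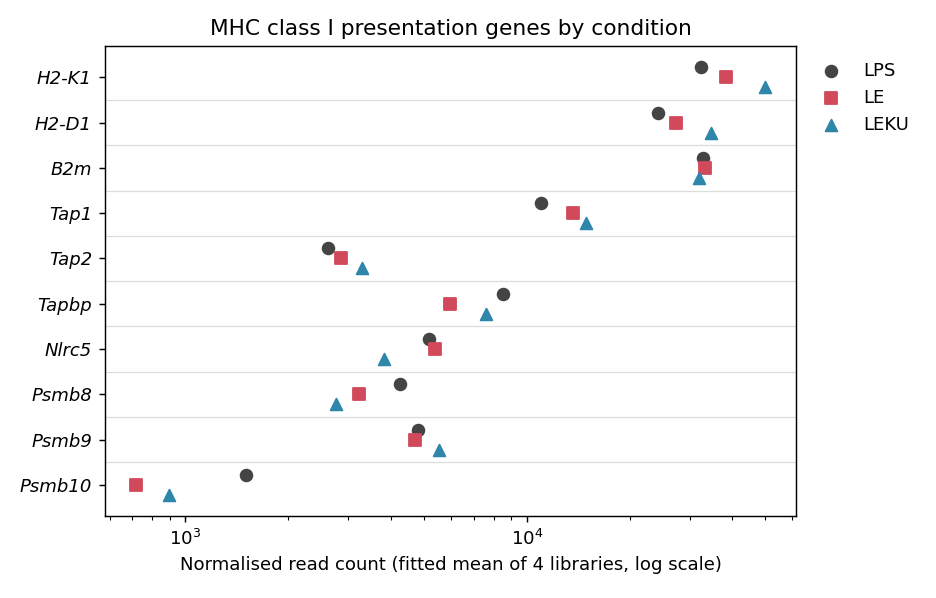
Normalised read count (log axis) of each of the 10 genes in LPS (circles), LE (squares) and LEKU (triangles). Each symbol is the fitted value of 4 libraries and carries no error bar because replicate spread is not in the table. H2-K1 and H2-D1 are lowest in LPS and highest in LEKU, B2m symbols nearly coincide (31888 to 33189 counts), and Psmb10 lies farthest to the left in LE (717 counts).

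The promoters of H2-K1 and H2-D1, the closest pair, of B2m, whose level was nearly flat, and of Tap1 are printed to show what they share in sequence. Windows of 300 bases with the RefSeq start at base 251 (GRCm38.p6) were at hand for 8 of the 10 genes, all but Tap2 and Nlrc5. Motifs were searched on both strands: the CCAAT box (CCAAT), the core of a cyclic AMP response element (TGACG), an interferon-stimulated element as GAAANNGAA, a STAT element as TTCNNNGAA, and the consensus NF-kB motif and p53 half-site by name. Capitals mark matches, shown 5′ to 3′ on the strand of the gene at chr17:34000298-34000597 (H2-K1, minus strand, the first of 2 RefSeq starts), chr17:35262844-35263143 (H2-D1, plus strand), chr2:122147437-122147736 (B2m, plus strand) and chr17:34187306-34187605 (Tap1, plus strand).
H2-K1: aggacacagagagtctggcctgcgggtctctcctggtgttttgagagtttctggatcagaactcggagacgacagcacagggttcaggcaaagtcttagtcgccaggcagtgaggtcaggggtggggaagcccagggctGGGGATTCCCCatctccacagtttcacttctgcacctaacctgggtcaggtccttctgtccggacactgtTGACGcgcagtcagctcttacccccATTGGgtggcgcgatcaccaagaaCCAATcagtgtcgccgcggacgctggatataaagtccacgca
H2-D1: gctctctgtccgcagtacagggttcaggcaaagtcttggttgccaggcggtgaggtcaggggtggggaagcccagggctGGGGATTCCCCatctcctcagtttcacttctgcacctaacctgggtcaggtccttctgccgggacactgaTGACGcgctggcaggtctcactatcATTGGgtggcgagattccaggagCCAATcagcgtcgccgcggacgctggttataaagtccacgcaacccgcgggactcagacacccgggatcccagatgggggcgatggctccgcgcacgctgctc
B2m: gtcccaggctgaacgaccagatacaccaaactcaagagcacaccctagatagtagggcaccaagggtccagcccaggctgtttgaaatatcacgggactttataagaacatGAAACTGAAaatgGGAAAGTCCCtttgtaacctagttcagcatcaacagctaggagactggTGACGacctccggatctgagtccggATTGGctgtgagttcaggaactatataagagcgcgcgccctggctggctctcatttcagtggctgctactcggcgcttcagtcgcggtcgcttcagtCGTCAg
Tap1: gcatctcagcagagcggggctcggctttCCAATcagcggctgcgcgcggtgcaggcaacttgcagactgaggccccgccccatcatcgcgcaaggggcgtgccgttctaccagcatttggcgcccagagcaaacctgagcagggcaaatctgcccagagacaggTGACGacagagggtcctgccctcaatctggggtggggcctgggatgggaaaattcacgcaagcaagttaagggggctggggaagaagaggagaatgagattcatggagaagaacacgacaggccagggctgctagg

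H2-K1 and H2-D1 shared the same order of matches. An NF-kB stretch of 11 bases, in which 2 overlapping matches are each found on both strands, was followed 70 bases later by TGACG in both genes. The reverse of CCAAT followed after 25 more bases in both, and CCAAT after another 24 bases in H2-K1 and 23 in H2-D1. B2m held one NF-kB match, a GAAANNGAA match that begins at position −139 from the start, TGACG and the reverse complement of CCAAT. The NF-kB consensus was found in the windows of 3 of the 8 genes (H2-K1, H2-D1 and B2m) and in 4.51% of all 32851 windows. TGACG was in 5 of 8 (20.8% of all windows) and CCAAT in 6 of 8 (37.4%). GAAANNGAA was in B2m only (8.56%) and TTCNNNGAA in Psmb8 only (8.30%), and the p53 half-site was in none of the 8 (8.36%). A window without GAAANNGAA may still hold an interferon-stimulated element in another spelling, which was not searched. Behind the NF-kB stretch, H2-K1 and H2-D1 share the letters tttcacttc, which GAAANNGAA does not match on either strand. The windows of Tap1 and Psmb9 share bases, so that their matches are not separate. These are matches of letters, and binding was not measured.

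The transporter genes were higher in LE and in LEKU than in LPS, whereas tapasin was lower in LE. Tap1 (ENSMUSG00000037321, chromosome 17, 34187553 to 34197225, plus strand) had 11034 normalised counts in LPS, 13688 in LE and 14908 in LEKU. Its log2 difference of 0.31 for LE against LPS was the highest of the 10 genes and lay above that of 70.2% of all genes. Tap2 (ENSMUSG00000024339, chromosome 17, 34203527 to 34216321), its partner in the transporter, had 2623, 2850 and 3287 counts and log2 differences of 0.12 for LE against LPS and 0.21 for LEKU against LE. Both kept their direction under all 5 other scalings in every comparison. Per kilobase of exon, the ratio of Tap1 to Tap2 was 2.90 in LPS, 3.32 in LE and 3.13 in LEKU.

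Tapbp (ENSMUSG00000024308, chromosome 17, 33915899 to 33929292, plus strand) encodes tapasin, which holds the empty class I molecule at the transporter. Its deposited counts were 6997, 7762, 8075 and 7276 in the LPS libraries, 5768, 6465, 7831 and 6268 in the LE libraries and 6905, 7786, 8341 and 8479 in the LEKU libraries. The 3 ranges overlap before the library factors are taken out, but they reflect those factors and not replicate spread. Normalised, Tapbp was lower by 29.9% in LE than in LPS (8505 and 5961 counts, log2 difference −0.51) and higher by 27.7% in LEKU than in LE (7614 counts, log2 difference 0.35). The log2 difference of LEKU from LPS was −0.16 and was positive under 3 of 5 other scalings (library totals, quantile normalisation and the columns as deposited). The ratio of Tapbp to Tap1 per kilobase was 1.16 in LPS, 0.657 in LE and 0.771 in LEKU. Whether this ratio lies above 1 depends on the annotated exonic lengths, 3628 bases for Tapbp and 5476 for Tap1. By normalised counts alone, Tap1 was above Tapbp in all 3 conditions. Tapbp shares 149 exonic bases with Zbtb22 on the same strand (694 counts in LPS and 466 in LE).

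Nlrc5 (ENSMUSG00000074151, chromosome 8, 94434356 to 94527272, plus strand), whose protein activates class I promoters, was lowest in LEKU. Its deposited counts were 4265, 4731, 4922 and 4435 in the LPS libraries, 5204, 5832, 7064 and 5654 in the LE libraries and 3473, 3916, 4195 and 4265 in the LEKU libraries. Differences between libraries of a condition come from the library factors and do not show replicate spread. Normalised, it had 5184 counts in LPS, 5377 in LE and 3830 in LEKU. The log2 difference was 0.053 for LE against LPS and −0.49 for LEKU against LE, the lowest of the 10 genes in the second comparison, where 14.1% of all genes were lower still. It was negative under all 5 other scalings in LEKU against LE, from −0.58 to −0.42. H2-K1, H2-D1, Tap1, Tap2, Tapbp, Psmb9 and Psmb10 had positive differences in that comparison.

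The 3 immunoproteasome subunits differed from one another. Psmb10 (ENSMUSG00000031897, chromosome 8, 105935735 to 105938444, minus strand), the inducible counterpart of Psmb7, had deposited counts of 1239, 1375, 1430 and 1289 in the LPS libraries. They were 694.2, 778.1, 942.4 and 754.3 in the LE libraries and 814.5, 918.5, 984.0 and 1000 in the LEKU libraries. Here too the ranges within a condition come from the library factors alone. Normalised, Psmb10 was lower by 52.4% in LE than in LPS (1506 and 717 counts, log2 difference −1.07), and only 4.92% of all genes had a lower difference. It was the single member lower by at least 1.5-fold in that comparison, where 16.0% of all genes were. In LEKU it had 898 counts, a log2 difference of 0.32 from LE and of −0.75 from LPS.

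Psmb8 (ENSMUSG00000024338, chromosome 17, 34197721 to 34201454, plus strand), the inducible counterpart of Psmb5, had 4240 normalised counts in LPS, 3217 in LE and 2770 in LEKU. It was lower in LE than in LPS (log2 difference −0.40) and lower again in LEKU (−0.22 against LE and −0.61 against LPS) under the main scaling and all 5 others. Psmb8 and Psmb10 were the 2 members lower by at least 1.5-fold in LEKU against LPS, where 15.4% of all genes were. Psmb9 (ENSMUSG00000096727, chromosome 17, 34181987 to 34187764, minus strand), the inducible counterpart of Psmb6, had 4794, 4711 and 5518 counts. Its log2 difference of −0.025 for LE against LPS turned positive under 4 of 5 other scalings (all but TMM), and that of 0.23 for LEKU against LE stayed positive under all 5.

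Psmb9 and Tap1 stand head to head. Their RefSeq starts lie 226 bases apart and face away from each other, so that the Tap1 window printed above holds both, the start of Psmb9 at base 25 and that of Tap1 at base 251. Their log2 differences for LE against LPS were −0.025 and 0.31. The ratio of Tap1 to Psmb9 per kilobase was 1.54 in LPS, 1.94 in LE and 1.81 in LEKU. The annotated exons of the genes overlap by 212 bases on opposite strands, and whether strand was used in the counting is not given in the sources used here.

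Set against the constitutive subunits they replace, the inducible subunits differed in their pattern. Per kilobase, the ratio of Psmb9 to Psmb6 was 1.00 in LPS, 0.958 in LE and 1.27 in LEKU. The ratio of Psmb10 to Psmb7 was 0.926, 0.552 and 0.873, so that it was lowest in LE and nearly as high in LEKU as in LPS. Both genes of this ratio were lower in LEKU than in LPS, Psmb10 by a log2 difference of −0.75 and Psmb7 by −0.66 (3263 counts in LPS and 2065 in LEKU). The ratio of Psmb8 to Psmb5 was 0.685, 0.638 and 0.573 and was lower in each further condition. Psmb5, Psmb6 and Psmb7 themselves had log2 differences of −0.06, −0.18 and −0.34 for LEKU against LE.

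**Figure D2:**
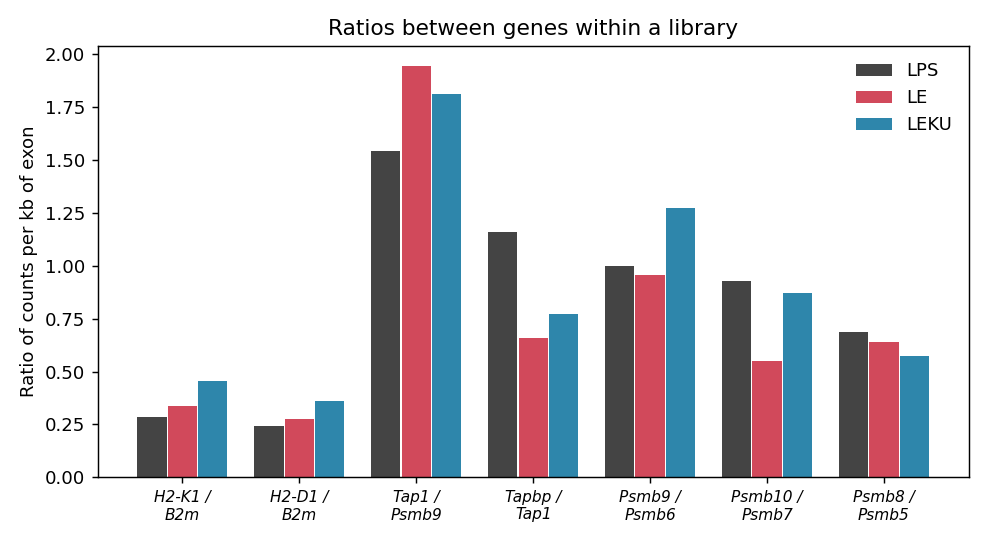
Ratios of counts per kilobase of annotated exon (linear axis from 0) for 7 pairs of genes in LPS, LE and LEKU. Each bar is a single value that is the same in the 4 libraries of a condition, since the library factor cancels. Both heavy chains gain on B2m from LPS to LEKU, and the ratio of Psmb10 to Psmb7 is lowest in LE at 0.552.

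With the exception of Psmb10 in LE against LPS, no member was among the lowest 5% or highest 5% of all genes in any of the 3 comparisons. The median log2 difference of the members was 0.033 for LE against LPS, beside −0.017 for all genes, and 6 of 10 were higher, beside 48.9% of all genes. For LEKU against LE the median was 0.22, beside −0.038 for all genes, and 7 of 10 were higher, beside 45.6% of all genes. None of the 10 was higher by at least 1.5-fold in that comparison (6.98% of all genes were) and none was lower by as much (10.7%). For LEKU against LPS the median was 0.079, beside 0.018 for all genes, with 5 of 10 higher, beside 51.3% of all genes. The 3 comparisons share libraries, since each condition enters 2 of them. The scaling moved several differences by over 1.5 times. Over the 5 other scalings the difference for LE against LPS lay between 0.25 and 0.56 for H2-K1, between 0.21 and 0.50 for H2-D1, between 0.33 and 0.63 for Tap1, between 0.14 and 0.44 for Tap2, between 0.076 and 0.37 for Nlrc5, between −0.49 and −0.19 for Tapbp, between −0.38 and −0.079 for Psmb8 and between −1.05 and −0.75 for Psmb10. For LEKU against LE it lay between 0.29 and 0.43 for H2-K1, between 0.24 and 0.38 for H2-D1 and between 0.029 and 0.23 for Tap1. H2-K1 stayed higher by at least 1.5-fold in LEKU against LPS under all 5, whereas Psmb8, at −0.55 to −0.39, was under that limit in each of them and Psmb10, at −0.70 to −0.52, in some.

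**Figure D3:**
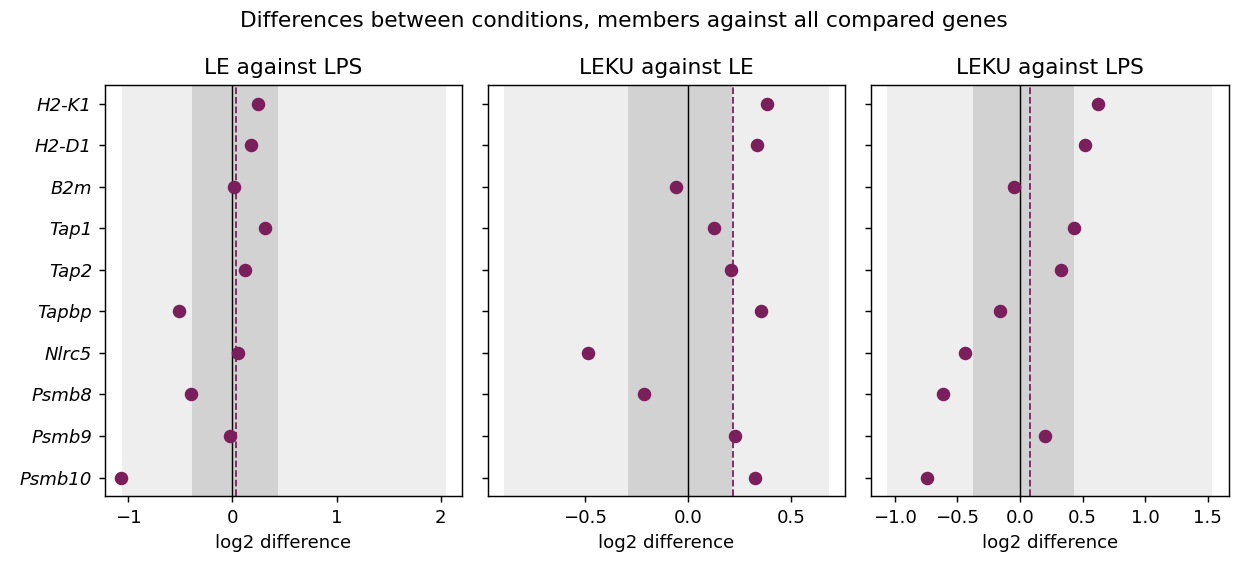
Log2 difference of each of the 10 genes (points) in the 3 comparisons, with the median of the members as a dashed line. Light grey leaves out the lowest 5% and highest 5% of the 14966 genes and dark grey the range between the quartiles. Psmb10 lies at the lower edge of the light band in LE against LPS (−1.07), and H2-K1 is the highest member in LEKU against LE (0.38).

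Other class I heavy chains, mostly non-classical molecules, were higher in LEKU than in LE for most of the list. Of 16 listed genes 14 had a mean of at least 10 counts, 11 of these had a positive difference, beside 45.6% of all genes, and 5 were higher by at least 1.5-fold, beside 6.98% (median log2 difference 0.52). H2-Q7 had 17501, 16291 and 24919 normalised counts in LPS, LE and LEKU, H2-Q6 had 12628, 14306 and 23332, and H2-Q4 had 5878, 7163 and 10694. H2-T23, which encodes the Qa-1 molecule seen by NK cell receptors, had 7396, 4652 and 8059 counts, with log2 differences of −0.67 for LE against LPS and 0.79 for LEKU against LE. H2-T10 was the highest of the list in LE against LPS (0.64), and H2-T24 was lower in LE (−1.06) and no higher in LEKU (−0.064 against LE). In LE against LPS, 6 of the 14 were higher and 8 lower, and the median of −0.11 turned positive with library totals and with the columns as deposited.

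The chaperones and the rest of the proteasome were, for most genes, lower in LEKU than in LE. Of the 7 genes for loading and trimming, 5 were lower in LEKU than in LE, beside 45.6% of all genes that were higher. Among the 5 were Pdia3, a disulfide isomerase of the loading complex (14708 and 9639 counts, log2 difference −0.61), and the lectin chaperone Canx (−0.38). Calr, also among them, had log2 differences of −0.35 for LE against LPS and −0.0019 for LEKU against LE. The second was positive, between 0.017 and 0.054, with TMM, upper-quartile, library-total and quantile scaling. Hspa5, a general chaperone of the endoplasmic reticulum, had −0.64 and 0.33, and Tapbpl, a relative of tapasin that edits peptides, had 0.28 and 0.28. All 11 other 20S subunits were lower in LEKU than in LE, by log2 differences from −0.43 (Psmb3) to −0.13 (median −0.30), and so were all 7 activator and assembly genes (median −0.25) and all 3 constitutive catalytic subunits, beside 45.6% of all genes that were higher. None of these proteasome genes was lower by at least 1.5-fold in LEKU against LE, beside 10.7% of all genes, whereas Pdia3 was. Among the 20S genes examined, under the main scaling, Psmb9 and Psmb10 were the 2 with a positive difference, whereas Psmb8 shared the direction of the constitutive subunits.

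**Figure D4:**
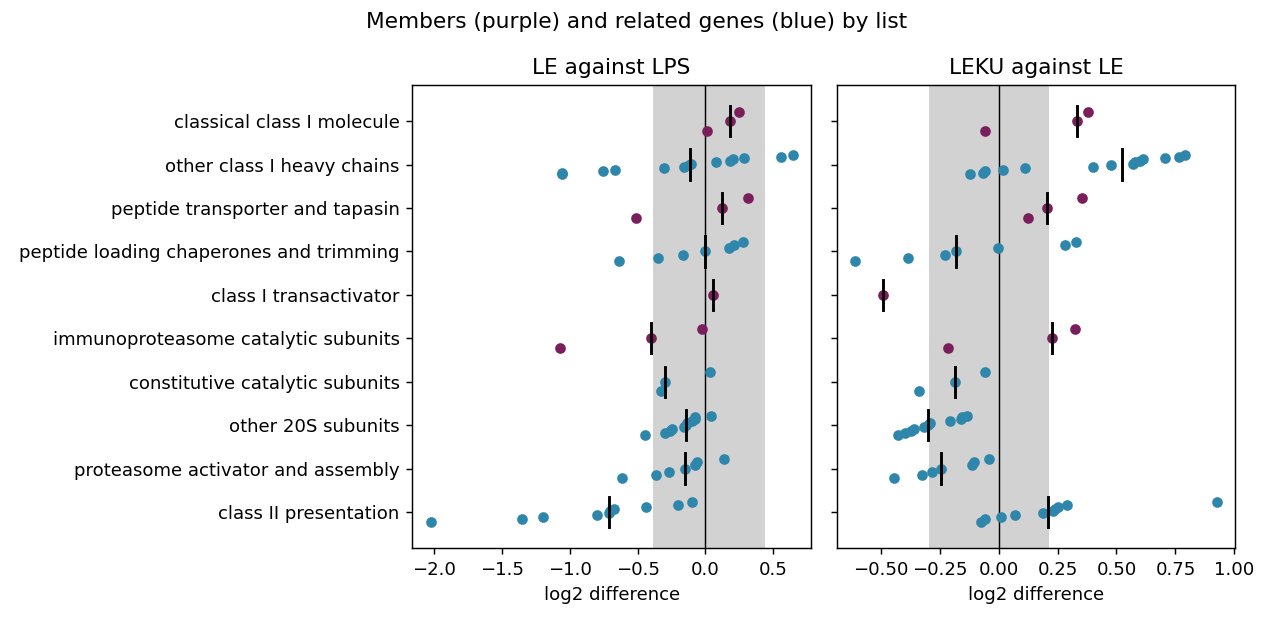
Log2 difference for LE against LPS (left) and LEKU against LE (right) of the 10 members (purple) and of related genes (blue), grouped by list, with a black bar at the median of each list. The grey band lies between the quartiles of all 14966 genes. In LEKU against LE the other class I heavy chains have a median of 0.52 and the other 20S subunits a median of −0.30.

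Class II genes, which load peptides from outside the cell, were lower in LE than in LPS for all 10 listed, 7 of them by at least 1.5-fold (median log2 difference −0.71), beside 48.9% of all genes that were higher and 16.0% that were lower by at least 1.5-fold, and the transactivator Ciita, a relative of Nlrc5, had 4414 counts in LPS and 1083 in LE (−2.03). The class II chains H2-Aa and H2-Eb1 had smaller differences of −0.44 and −0.10, the second of which reached 0.069 under another scaling, and H2-Ob, a subunit of an inhibitor of class II loading, was the highest of the list in LEKU against LE (0.93). B cell markers were also lower in LE, 7 of 7 and 6 by at least 1.5-fold (16.0% of all genes were), with a sum of counts of 138237 in LPS, 75377 in LE and 84280 in LEKU. Ms4a1, at −0.59, was among those 6 but lay between −0.57 and −0.46, under that limit, with TMM, upper-quartile, library-total and quantile scaling. Of 6 macrophage markers the sum was 415.0, 470.0 and 431.3 counts in the same order, with Cd68 at 103.9, 212.2 and 175.3 and Itgam at 219.0, 129.5 and 114.9. The 5 dendritic cell markers summed to 2830, 1736 and 2995 counts, of which Flt3 made 2784, 1659 and 2944, and the 4 red blood cell markers to 207.9, 138.0 and 100.2. The part of these shifts in the differences of the class I genes was not tested, and in bulk RNA fewer cells of a type and less RNA per cell cannot be told apart.

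Of 16 listed regulators of class I transcription, 5 were higher and 11 lower in LE than in LPS, beside 48.9% of all genes that were higher, with a median log2 difference of −0.23 that was positive in the columns as deposited. Irf1, which binds interferon-stimulated elements of class I promoters, had 1921, 2297 and 2590 counts in LPS, LE and LEKU, and Irf9, which carries interferon signals together with Stat2, had 3811, 4543 and 5209. Nfkb1 was lower in LE (12650 and 5812 counts, log2 difference −1.12), as was Rfx5, a subunit of the complex through which Nlrc5 and Ciita reach promoters (−1.30). Nfyb, a subunit of the factor that binds the CCAAT box, was the highest of the list in LE against LPS (1.89) and the lowest in LEKU against LE (−0.80). Stat2 had the opposite order, with 6312, 2838 and 5553 counts.

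The genes whose pattern was nearest to the median of the members, by the distance between their log2 differences for LE against LPS and for LEKU against LE, were Dync1li2, Mfsd4, Tspan13, Tmem259 and Clasrp, at distances from 0.0063 to 0.0225 among genes with a mean of at least 1000 counts.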

How the data were processed

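PolyA RNA was sequenced in 12 libraries. The authors trimmed reads with Trim Galore and cutadapt 1.2.1, mapped them with TopHat2 2.0.12 to GRCm38, took gene counts with HTSeq and fitted DESeq2 1.6.3, per their methods and the submitters' processing notes. The deposited signal in each column, named a normalised count by the authors, is a fitted condition value times a library factor, and per-library counts were not used here. The authors' 3 comparison tables (mean count, log2 fold change, standard error, Wald statistic, p-value and adjusted p-value) were not used.

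Library factors were recomputed as medians of ratios over genes with a mean of at least 10 counts, columns were divided by them, and log2 differences used a pseudocount of 1. The planned limma test needs replicate values and was not run. Fold limits of 1.5 describe size. The median-of-ratios and TMM scalings were tested on simulated data without replicate noise, in which far fewer genes changed than here. Quantile scaling, ratios and motif matches were not tested in this way. Exonic lengths and coordinates came from GENCODE M21 (GRCm38), which covers 99.5% of the compared genes, and promoter sequences from RefSeq (GRCm38.p6). An exonic length is the union over all annotated transcripts. The other genes named are, from each list, the 3 most abundant and those with the highest and lowest differences at a mean of at least 100 counts, with exceptions chosen after their values were seen (Irf1, Ifnb1, Ifng and Zbtb22). Values of some listed genes are not reported here. The members and the lists were chosen with earlier results of these data known. Alternatives were TMM (trims of 30% and 5%), upper-quartile, library-total and quantile scaling, the columns as deposited, other filters, pseudocounts and fold limits, and leaving out each library. Computation used Python 3.11.15, numpy 2.4.6, pandas 2.3.3 and matplotlib 3.10.9.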

Additional observations from a re-analysis of the deposited data

How the results depend on the processing

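No paired analysis was possible because the columns hold fitted condition values without replicate spread. Of the 10 members, B2m, Psmb9 and Tapbp were the ones whose difference changed direction under another scaling, and none did under another filter or pseudocount or without a library. The median log2 difference of the members for LE against LPS became 0.097 with upper-quartile factors, 0.15 with library totals, 0.20 with quantile normalisation and 0.35 in the columns as deposited. For LEKU against LE it became 0.26 with TMM factors, 0.27 with library totals, 0.31 with quantile normalisation and 0.12 as deposited. For LEKU against LPS it became 0.14 with TMM factors, 0.16 with upper-quartile factors, 0.24 with library totals, 0.37 with quantile normalisation and 0.30 as deposited. As deposited, the median of all genes was 0.30, −0.13 and 0.24 in the 3 comparisons, and with library totals it was 0.097, 0.011 and 0.18, so that part of each move is common to all genes. Members higher by 1.5-fold in LEKU against LPS numbered 2 with upper-quartile factors and 3 with library totals, quantile normalisation or the columns as deposited, and members lower numbered 1 with TMM, upper-quartile factors or quantile normalisation and 0 with library totals or as deposited. Members higher by 1.5-fold in LE against LPS numbered 1 with quantile normalisation and 1 as deposited. With the lower of the other fold limits tried, 0 members were higher and 3 lower in LE against LPS. At that limit, 4 were higher and 1 lower in LEKU against LE, and 4 higher and 3 lower in LEKU against LPS. With a limit of 2-fold, 0 were higher and 0 lower in LEKU against LPS. Shares of all genes are given only for 1.5-fold under the main scaling, and not beside the member counts of this paragraph. Leaving out each library moved the medians between 0.026 and 0.037, between 0.21 and 0.23 and between 0.073 and 0.083 in the order of the comparisons above, and the counts at 1.5-fold stayed at 0 higher and 1 lower, 0 and 0, and 1 and 2. Leaving out a library can act here only through the library factors. Depth does not limit these genes, and the missing replicate spread does.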

Other observations

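Among 9 genes for interferon ligands, receptors and their kinases, Ifng was near 0 in all conditions (0.26 to 0.35 normalised counts) and Ifnb1 had 1.15, 2.02 and 5.79 counts in LPS, LE and LEKU. Of the 7 others, 6 were higher in LEKU than in LE (median log2 difference 0.12), beside 45.6% of all genes. Jak2, a kinase of the interferon gamma receptor, had 1949, 1827 and 3360 counts, a log2 difference of 0.88 for LEKU against LE. Jak1, which serves both interferon receptors, was lower in LE (11812 and 5048 counts, log2 difference −1.23) and in LEKU (4651 counts). Ifnar1 had 3170, 2916 and 3971 counts, and Ifngr1 was the highest of the list in LE against LPS (0.34).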
